A study of Mus musculus with 6 samples.

Results

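END_7 is a cluster of endothelial cells, the cells that line blood vessels, from the striatum of newborn mice. Its members were taken by the cluster name in the deposited table of annotated cells. They were 605 of 14373 annotated cells, in a table of 16690 barcodes. All 605 came from postnatal day 3 (P3): 173 from replicate 1, 172 from replicate 2 and 260 from replicate 3, or 6.88, 4.73 and 5.16% of the annotated cells of those libraries. The 6 single-cell RNA-seq libraries came from male, wild type C57BL/6 mice, 3 from preparations at P3 and 3 at 3 months of age (3m), and each preparation pooled several animals. All cells had been selected on magnetic beads for ACSA2, a surface antigen of astrocytes, and the labels name the samples striatal astrocytes. END_7 therefore holds vascular cells that came through an astrocyte enrichment, and its share of a library does not measure the share of endothelium in the tissue. The endothelial cluster of the adult libraries was END_17, which had 59, 47 and 57 cells in the 3m replicates, 163 in all, and 1 cell at P3.

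Brain endothelium forms the blood-brain barrier: claudins seal the junctions between cells, nutrient carriers bring in glucose and amino acids, and efflux pumps return drugs and lipophilic compounds to the blood. In the newborn brain the vessels still sprout, led by tip cells that follow VEGF, while stalk cells behind them divide and basement membrane is laid down. Wnt signals from neural cells, read through Fzd4 and its co-receptors, start and hold the barrier programme.

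The cluster name was checked against 4 genes given with it, using CPM, the UMIs (captured transcripts) of a gene per 1000000 UMIs in the summed cells of a library. Kdr (VEGF receptor 2, chromosome 5: 75932827 to 75978458 on GRCm38, minus strand) was at 682, 443 and 435 CPM in END_7 in P3 replicates 1, 2 and 3, against a mean of 1.36 CPM in all non-endothelial P3 cells. Cldn5 (the tight junction claudin of the barrier, chromosome 16: 18776847 to 18778262, plus strand) was at 3489, 2806 and 2388 CPM against 3.77 CPM. Slc38a5 (a glutamine carrier, chromosome X: 8271133 to 8280179, plus strand) was at 946, 872 and 797 CPM against 1.41 CPM. For these genes every END_7 library lay far above every P3 class outside the endothelial clusters. Fn1 (fibronectin, chromosome 1: 71585520 to 71653200, minus strand) was at 701, 667 and 612 CPM, and it was the least exclusive of the 4, because P3 pericytes held a mean of 158 CPM. All 18 genes of an endothelial identity list, among them Pecam1, Cdh5, Tie1, Tek and Erg, were at least 2 times higher in END_7 than in the non-endothelial cells in all 3 libraries. Since the clusters were made from these genes, these are descriptions without a test.

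**Figure D1:**
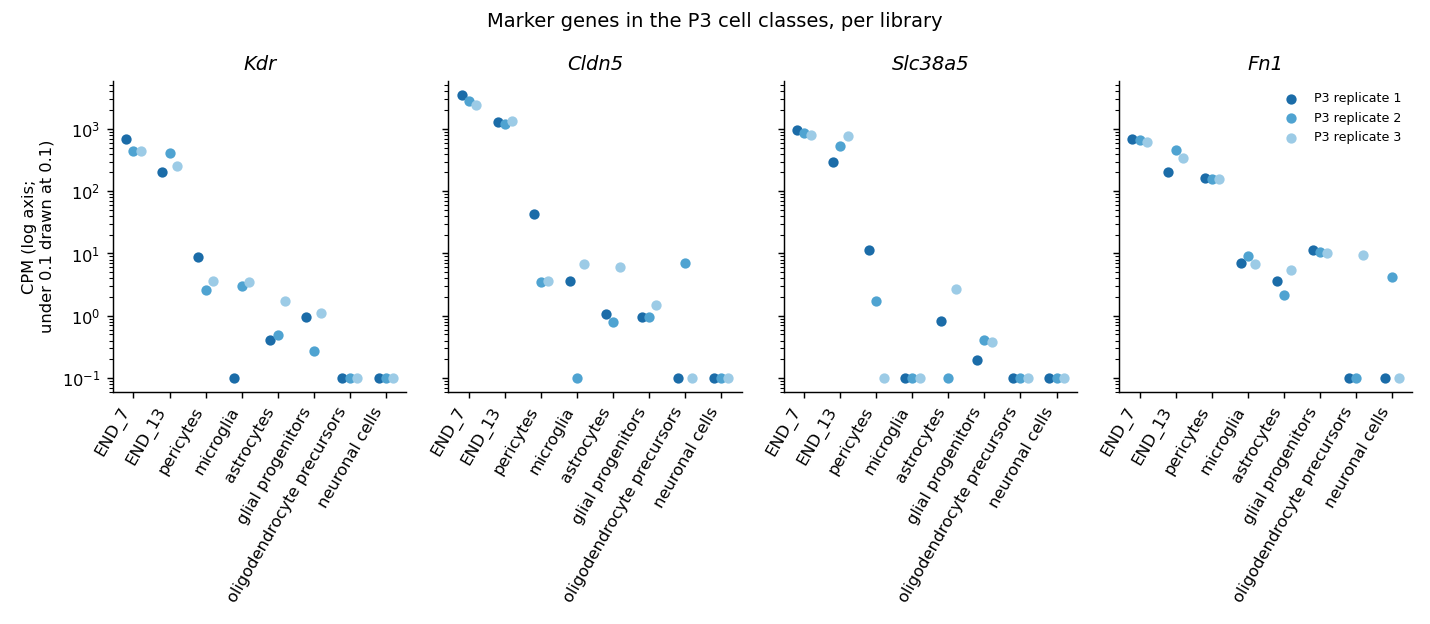
CPM of Kdr, Cldn5, Slc38a5 and Fn1 (log axis) in the summed cells of 8 P3 classes, 1 point per P3 library, with values under 0.1 drawn at 0.1. The 3 END_7 points of Cldn5 sit between 2388 and 3489 CPM, and pericytes, at a mean of 158 CPM, come nearest to END_7 for Fn1 among the non-endothelial classes shown.

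At equal depth nearly every END_7 cell carried Cldn5. With each cell thinned at random to 2000 UMIs, 100, 99.4 and 98.1% of END_7 cells in replicates 1 to 3 had a Cldn5 UMI, against 0.121, 0.0790 and 0.414% of P3 astrocytes, which should lack it. Before thinning the median cell held 32603, 22396 and 26229 UMIs in END_7 and 9101, 7322 and 5021 UMIs in astrocytes. Kdr was found in 65.9, 49.7 and 60.8% of thinned END_7 cells and Slc38a5 in 72.8, 80.1 and 75.4%. Without thinning these shares were 97.7 to 99.4% for Kdr and 98.5 to 99.4% for Slc38a5, so most cells without a UMI of these genes at 2000 had one at full depth.

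The stretches just upstream of Cldn5 and Kdr are shown because these genes were given with the cluster as markers. ETS factors such as Erg, which END_7 expressed, bind a GGAA core, and each core is in capitals, as GGAA or, on the other strand, TTCC. Both are the 150 bases before the RefSeq start, read 5′ to 3′ along the gene, on GRCm38.p6: chr16:18776697-18776846 on the plus strand for Cldn5 and chr5:75978456-75978605 on the minus strand for Kdr.
Cldn5: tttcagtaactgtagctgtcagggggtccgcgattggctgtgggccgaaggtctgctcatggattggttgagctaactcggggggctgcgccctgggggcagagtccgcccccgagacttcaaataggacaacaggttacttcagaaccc
Kdr: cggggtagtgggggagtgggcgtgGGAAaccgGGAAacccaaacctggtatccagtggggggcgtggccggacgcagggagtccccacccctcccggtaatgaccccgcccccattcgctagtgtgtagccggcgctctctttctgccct
The Kdr stretch held 2 such cores and the Cldn5 stretch 0. RefSeq promoters were matched for 7 of the 12 leading END_7 genes described below, and 6 of their 8 promoters held at least 1 core in these 150 bases, against 80.8% of all 32851 promoters. The counts describe letters in these windows only.

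END_7 cells were the deepest or next to deepest of 19 P3 clusters in each library by median UMIs. Their medians were 32603, 22396 and 26229 UMIs and 6033, 4807 and 5212 genes per cell in replicates 1 to 3, and their median mitochondrial shares were 2.33, 1.77 and 1.25%. The cells ran from 1688 to 194201 UMIs, and 65.0% held over 20000 UMIs against 5.55% of the other P3 cells. Of the P3 cells with over 50000 UMIs, 80 were in END_7 and 7 elsewhere. END_7 was 5.41% of P3 cells and held 17.8% of P3 UMIs. END_17 cells had medians of 8307, 4258 and 5818 UMIs at 3m. Over END_7 and END_17 together the ages differed by 20914 UMIs (27042 ± 5102 at P3 against 6128 ± 2042 at 3m, SD of library medians, n = 3 each, exact two-sided permutation test p = 0.1, the smallest p that 3 against 3 allows). P3 and 3m libraries did not overlap, but with all 4 endothelial clusters the medians were 16212 ± 12794 UMIs at P3 and 5985 ± 2089 at 3m, 10227 UMIs apart (exact permutation p = 0.4). No doublet caller was run here, and the part of doublets in the deepest cells was not tested. No barcode occurred in more than 1 END_7 library, and 5 END_7 barcodes occurred in another library of the series, in which 37 barcode sequences were shared.

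**Figure D2:**
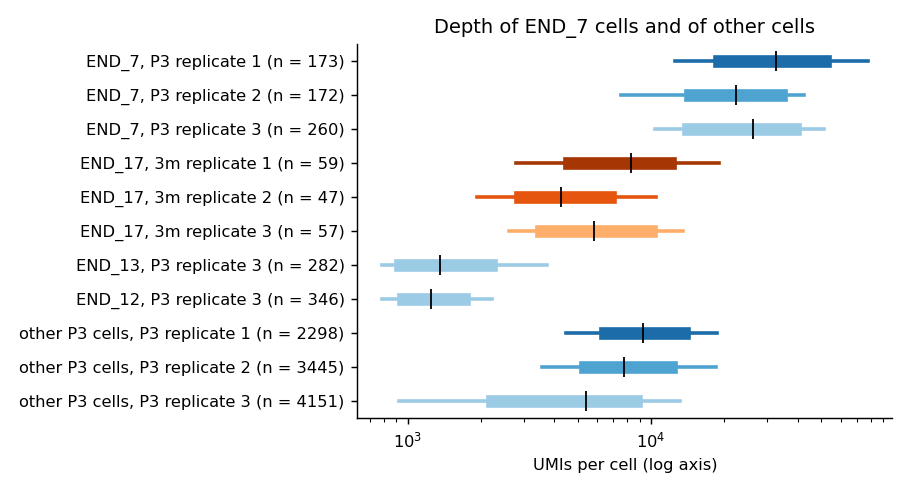
UMIs per cell (log axis) in END_7, END_17, the END_13 and END_12 cells of P3 replicate 3 and the non-endothelial P3 cells, per library. Thin bars run from the 10th to the 90th percentile, thick bars span the quartiles and black ticks are medians, which lie at 22396 UMIs or more for END_7 and at 9273 UMIs or less elsewhere.

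A pair of further P3 clusters carry an endothelial name and lie mostly in replicate 3. END_13 had 42, 15 and 282 P3 cells, with a median of 1364 UMIs in replicate 3, and END_12 had 1, 2 and 346 cells, with a median of 1253 UMIs there. END_7 was kept separate from both. Because replicate 3 stands apart in this way, the overall counts of genes by age are given with and without it.

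The 12 genes that led END_7 over every P3 class outside the endothelial clusters, ranked by the lowest of the 3 library ratios to the next class, began with Prnd, which encodes doppel, a relative of the prion protein. The next class often had few UMIs, so the ratios are given with their 95% counting intervals or the UMIs behind them. Prnd was at 169, 126 and 128 CPM, and its lowest ratio was 75.4 (13.5 to 2983), set by 1 UMI in a multiciliated cluster. Pglyrp1, a peptidoglycan binding protein, was at 1677, 1672 and 2044 CPM, with a lowest ratio of 66.4 (49.8 to 90.8) to pericytes. Icam2, an adhesion molecule of endothelium, was at 236, 287 and 271 CPM, with 66.2 (11.9 to 2618), set by 1 UMI in microglia. Each of these was within a factor of 2 across the 3 libraries. Tmem252, a membrane protein, had 57.8 (10.3 to 2286) and Sox18, a transcription factor of vessel growth, 51.4 (9.22 to 2032), both also set by 1 UMI. Vwa1, a matrix protein, had 45.3 (25.9 to 87.7), Cldn5 40.2 (28.9 to 57.8) and Cdh5, the adherens junction cadherin, 37.9 (14.8 to 139). Vwf, a clotting protein stored in endothelial granules, had 36.1 (9.96 to 298), set by 2 UMIs, and Slc38a5 33.6, set by 14 UMIs. Gimap1, a GTPase, had 30.8 (5.50 to 1216), set by 1 UMI, and Adgrl4, an adhesion receptor of endothelium, 30.7 (10.5 to 149), set by 3. The order among these genes is therefore not settled by the counts. Kdr came after these with 17.1, and Fn1, which pericytes share, with 3.97.

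Across all genes, 1752 of 14697 (11.9%) were at least 2 times higher in END_7 than in the summed non-endothelial P3 cells in all 3 libraries, and 3780 (25.7%) were at least 2 times lower. Against that background, all 18 barrier transporters were at least 2 times higher, with a median ratio of 30.7, and so were 11 of 11 measured tip cell genes (median ratio 27.5) and 20 of 22 endothelial transcription factors (22.9). Wnt pathway genes followed with 14 of 19, basement membrane genes with 16 of 20, VEGF and angiopoietin genes with 8 of 12 and junction genes with 7 of 11. The Notch list was mixed, with 4 of 12 higher and 2 lower. Proliferation genes were not concentrated in END_7: 0 of 20 were higher and 2 lower, and their summed level was 2164, 1376 and 1854 CPM against 2636, 2213 and 2334 CPM in the other cells, which include the cycling glial progenitors. Of the remaining lists, 9 of 14 MHC class I and interferon genes, 6 of 9 venous, 6 of 11 arterial, 4 of 6 caveolar and 4 of 9 integrin genes were higher. Imprinted genes were mixed, with 4 of 12 higher and 5 lower. Immediate early genes, which respond to dissociation, gave 2 of 9 higher and 2 lower, and ribosomal protein genes 1 of 83 higher.

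Markers of other cell types were measured in the same sums. Astroglial markers, the target of the sort, summed to 404, 604 and 445 CPM in END_7 against 32015, 31144 and 27418 CPM in the non-endothelial cells, and all 9 were at least 2 times lower. Of 8 microglial markers, 7 were at least 2 times lower in END_7 and 0 higher. Neuronal markers summed to 7.85 to 20.2 CPM against 26.8 to 60.3 CPM in the non-endothelial cells, and fibroblast markers to 58.1 to 103 CPM against 31.2 to 55.5 CPM. Oligodendrocyte markers summed to 74.4 to 86.2 CPM against 7.46 to 11.2 CPM, nearly all of it in END_7 Mal (72.8, 82.4 and 83.3 CPM), a membrane traffic protein. The fibroblast and oligodendrocyte sums were thus small, but above those of the non-endothelial cells in each library. Mural markers, those of pericytes and smooth muscle, were higher: 4125, 3756 and 2618 CPM in END_7 against 1583, 857 and 1311 CPM in all non-endothelial cells, with 6 of 11 at least 2 times higher. Rgs5, a pericyte regulator of G protein signals, was at 1928, 1229 and 836 CPM, against a mean of 5848 CPM in P3 pericytes. Vtn (vitronectin) was at 944, 1169 and 734 CPM against 4518 CPM. Acta2, the smooth muscle actin, was at 8.82, 25.2 and 58.2 CPM against 3980.1 CPM. The ratio of END_7 to the summed P3 pericytes differed between these mural genes, and what sets it was not tested.

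Mural transcripts were spread over most END_7 cells. Thinned to 2000 UMIs, Rgs5 was found in 85.5, 80.7 and 70.4% of END_7 cells, in 0.667, 0.435 and 1.82% of astrocytes and in 97.6 to 99.5% of pericytes. At least 2 of the 11 mural markers were found in 84.4, 87.1 and 75.8% of END_7 cells, in 2.21 to 2.91% of astrocytes and, at 3m, in 46.4 to 57.7% of END_17 cells. At least 2 astroglial markers were found in 7.51, 6.43 and 8.46% of END_7 cells. The source of these transcripts was not tested.

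Sprouting, arterial and venous genes were each found in a part of the thinned END_7 cells. Thinning leaves some transcripts of a cell unseen, so these shares alone do not show that the cells differed. At 2000 UMIs, 50.1% ± 5.16 of the cells (SD, n = 3 libraries) carried at least 2 of the 12 tip cell genes, with 56.1, 47.4 and 46.9% in replicates 1 to 3. In P3 astrocytes the share was 0 of 1649, 2531 and 2414 cells (3 cells, the limit for a count of 0, would be 0.182, 0.119 and 0.124%), and in P3 pericytes it was 11.5 to 17.1%. Apln, a peptide ligand made by tip cells, was found in 43.4, 43.9 and 43.8% of END_7 cells. Esm1, a sharper tip cell marker in retina, was low at 10.8, 4.05 and 8.39 CPM. At least 2 arterial genes were found in 33.5, 34.5 and 34.2% of cells, where Gja4 (up to 33.3%) and Cxcl12 (33.5, 36.3 and 35.8%) were frequent, and pericytes reached 32.4, 52.1 and 61.4% on the same list. In END_17 the arterial share at 3m was 58.9, 59.5 and 65.4%. At least 2 venous genes were found in 53.8, 42.1 and 46.2% of END_7 cells, and Slc38a5, which most END_7 cells carry, is one of that list. The shares therefore do not count arteries and veins. Over the 3 libraries pooled, 206 cells had at least 2 arterial genes and 41.3% of them also had at least 2 venous genes, against 50.2% of the other cells. These shares come from cells of the same 3 libraries and carry no test.

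A minority of END_7 cells had cycling transcripts. At 2000 UMIs, 9.83, 5.26 and 7.31% of the cells in replicates 1 to 3 (95% Wilson intervals 6.23 to 15.2, 2.79 to 9.70 and 4.73 to 11.1%) had a UMI in at least 2 of Mki67, Top2a and Cdk1, genes of the dividing cell. P3 astrocytes reached 0.277 to 0.849%, pericytes 9.09 to 10.2% and glial progenitors 47.7 to 59.6%. Wilson intervals here cover counting error only. Of the 45 cycling END_7 cells, 15 (33.3%) also carried at least 2 tip cell genes, against 51.0% of the others, a description over pooled cells.

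Depth moved with these scores inside END_7. The cells of each library were split by UMIs into 3 groups of nearly equal size, with medians of 15189, 32688 and 61460 UMIs in replicate 1. In the deepest group proliferation genes summed to 2630, 1815 and 2585 CPM in replicates 1 to 3, and in the shallowest to 978, 380 and 778 CPM. Arterial genes ran the other way, at 535, 653 and 631 CPM in the deepest group and 1367, 1470 and 2014 CPM in the shallowest. So did mural markers, at 3396, 2679 and 2037 CPM against 6352, 5641 and 3600 CPM. Tip cell genes were at 905, 953 and 845 CPM in the deepest group and at 1433, 1300 and 1382 CPM in the shallowest. Deepest and shallowest stood in this order in all 3 libraries, and the part of depth in it was not tested.

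**Figure D3:**
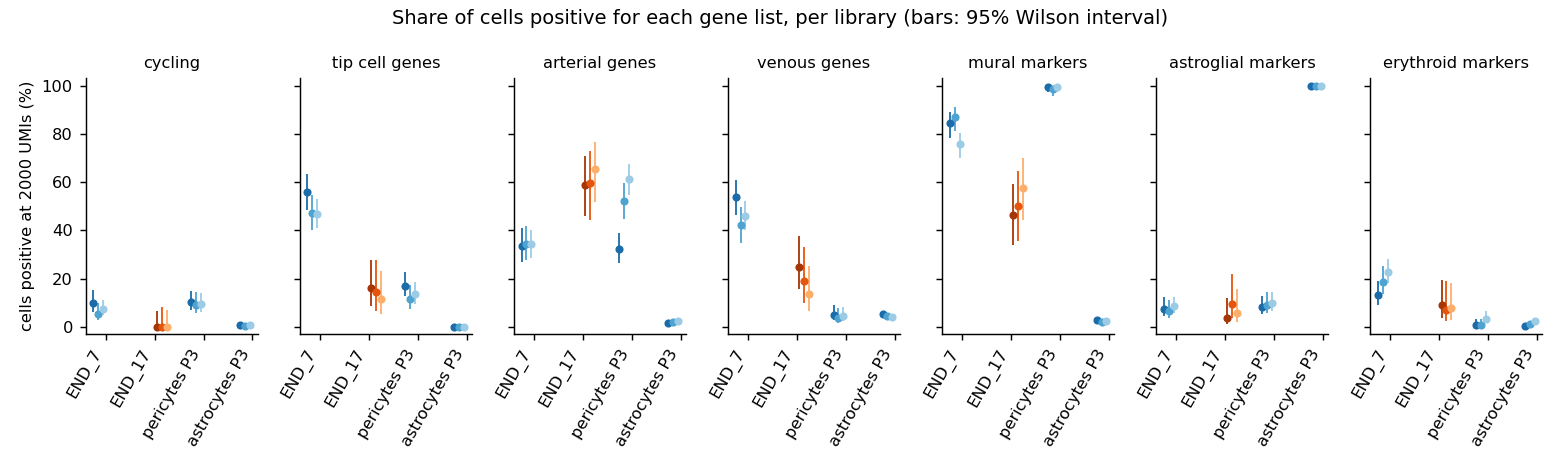
Share of cells (%, each thinned to 2000 UMIs) with at least 2 genes of a list, or at least 1 for erythroid markers, in END_7 (P3), END_17 (3m), P3 pericytes and P3 astrocytes, 1 point per library with its 95% Wilson interval. Tip cell genes were found in 46.9 to 56.1% of END_7 cells and in 11.5 to 16.1% of END_17 cells, and cycling cells were at 0 in END_17.

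The genes that varied most between END_7 cells were globins. Hbb-bs (beta globin, chromosome 7: 103826534 to 103828096, minus strand) had a variance to mean ratio of 116, 245 and 205 over thinned cells in replicates 1 to 3, where counting alone gives about 1. Hba-a1 followed with 59.7, 109.6 and 120.3, then Hba-a2 and Hbb-bt. The signal sat in few cells. Of unthinned END_7 cells 28.9, 27.3 and 41.5% had any UMI of the 5 erythroid genes, the 10% of cells with the most held 98.8, 95.6 and 94.0% of these UMIs, and in 1 cell they were 57.3% of all UMIs. The median END_7 cell had 0. P3 pericytes, which like P3 astrocytes were shallower, had an erythroid UMI in 1.76 to 6.30% of unthinned cells and P3 astrocytes in 1.36 to 7.36%. Thinned to 2000 UMIs, the shares were 13.3, 18.7 and 22.7% in END_7, 0.606 to 3.26% in P3 pericytes and 0.364 to 2.28% in P3 astrocytes. The source of the globin was not tested.

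After the globins the most variable genes were Malat1, a nuclear RNA, Fth1, ferritin, and Fabp7, a lipid carrier of radial glia and astrocytes. Fabp7 had variance to mean ratios of 8.93, 9.63 and 9.71 and was found in 13.3 to 17.3% of thinned END_7 cells. Gm42418, which overlaps ribosomal RNA, and Bsg, basigin, came next. Cxcl12, a chemokine of arterial and capillary endothelium, had ratios of 4.14, 5.21 and 6.76. Hist1h1b, a histone gene of S phase, had 4.38, 3.25 and 3.36, and Sat1, a polyamine enzyme, closed the 12. Within END_7 the variable genes thus included a glial, an arterial and a cell cycle gene.

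The question across age was how END_7 differed from the endothelium of the adult striatum. Library sums of END_7 and END_17 were compared, 3 libraries at P3 against 3 at 3m, with log2(fold change) given as P3 over 3m ± SE. Since END_7 holds only P3 cells and END_17 nearly only 3m cells, cluster and age cannot be told apart, and fewer transcripts per cell cannot be told from fewer cells that hold them. A gene was called when padj (edgeR's quasi-likelihood test, Benjamini-Hochberg over all genes) was at most 0.05 and the difference was 2-fold or more. Of 10271 genes tested, 1095 (10.7%) were called higher at P3 and 1191 (11.6%) lower, with a median log2(fold change) of 0.03. The END_7 sums held 4200780 to 7386516 UMIs but the END_17 sums of 3m 256977 to 562163, so low genes were limited by the adult side. Without P3 replicate 2, 707 genes were higher and 936 lower at P3 of 7205 tested. Without P3 replicate 3, 682 were higher and 899 lower of 7177 tested. Restricting P3 to its 392 cells no deeper than the deepest 3m cell (32889 UMIs), a choice made after seeing the data, left 768 higher and 959 lower of 8843 tested.

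Among the largest differences higher at P3, several genes had no UMI in adult endothelium. Prnd (chromosome 2: 131950861 to 131956130) was at 168, 126 and 128 CPM at P3 with 0 UMIs at 3m, which makes it at least 58.6-fold higher at P3, taking 3 UMIs over the 3m libraries as the floor. Tubb6, a beta tubulin, was at 139, 121 and 117 CPM against 0 UMIs, at least 51.7-fold higher. Aplnr, the apelin receptor, was at 104, 60.7 and 70.1 CPM against 0 UMIs, at least 33.2-fold higher. The P3 and 3m libraries lay apart for these and for Exoc3l4, an exocyst relative, which was at 37.5, 49.8 and 68.2 CPM against 0 UMIs, at least 21.5-fold higher. Apln, the ligand of Aplnr (chromosome X: 48025146 to 48034853), was at 333, 367 and 383 CPM at P3 against 1 UMI in the 3 adult libraries, a ratio of 443 (95% counting interval 79.5 to 17513, padj = 2.65e-11). In the non-endothelial cells Apln stood the other way round, at 4.39 CPM at P3 and 49.1 CPM in the adult. Fscn1, the actin bundler fascin, had a ratio of 391 (70.1 to 15433) and Htra3, a secreted protease, 367 (65.8 to 14484). Ctsw, a cathepsin, had 129.9 (23.3 to 5134), Dusp2, a MAP kinase phosphatase, 107 (19.3 to 4247), and Tnfrsf11b, the decoy receptor osteoprotegerin, 105 (18.8 to 4143). Each of these last 6 had 1 UMI at 3m, and the intervals cover counting error only.

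The largest differences lower at P3 included enzymes and an artery gene. Fmo2, a flavin monooxygenase (chromosome 1: 162874317 to 162898726), was at 87.2, 58.4 and 109.5 CPM at 3m with 0 UMIs at P3, at least 550.1-fold lower at P3. Xdh, xanthine dehydrogenase, was at 64.0, 85.6 and 70.6 CPM at 3m with 0 UMIs at P3, at least 439-fold lower. Both had no UMI in END_7 although its sums were the deeper ones. Gkn3, a gene of brain arteries (chromosome 6: 87383256 to 87388935), was at 0.568, 0.476 and 0.677 CPM at P3 and at 655, 463 and 453 CPM at 3m (-9.62 ± 0.29, padj = 4.72e-14). Adult endothelium thus held an arterial gene at a level that END_7 nearly lacked. Alpl, alkaline phosphatase, was at 0.995, 0.952 and 0.135 CPM against 183, 148 and 185 CPM (-7.90 ± 0.33), and Ntn4, netrin 4, had -7.69 ± 0.55. Degs2, a sphingolipid desaturase, was at 1.14 to 1.22 CPM at P3 and 210.1 to 255 CPM at 3m (-7.45 ± 0.25). Paqr5, a progestin receptor, had -7.25 ± 0.32, Gbp4, an interferon-induced GTPase, -6.41 ± 0.45, Ptprr, a phosphatase, -6.06 ± 0.22, and Eps8l2, an actin regulator, -6.04 ± 0.38. Every P3 library of these 10 genes lay below every 3m library.

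**Figure D4:**
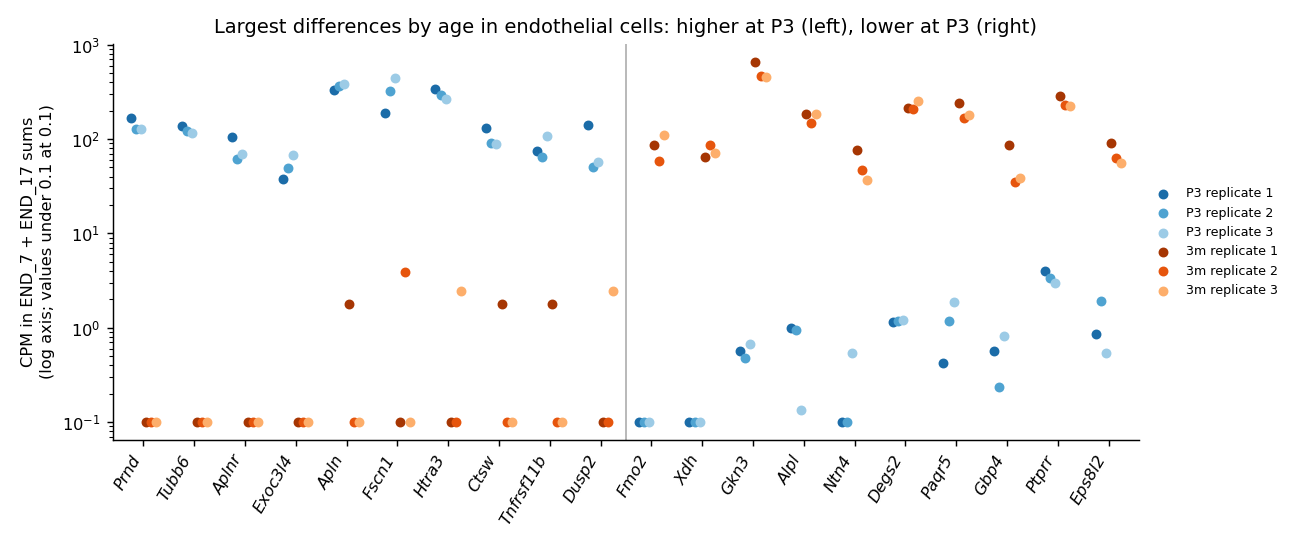
CPM (log axis, values under 0.1 drawn at 0.1) of the 10 largest differences each way in the END_7 and END_17 sums, 1 point per library, blue for P3 and orange for 3m. Prnd, Tubb6, Aplnr and Exoc3l4 have no UMI at 3m, and Fmo2 and Xdh none at P3.

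Proliferation genes were higher at P3. Of 20 tested, 17 were called higher and 0 lower, beside 10.7% and 11.6% of all genes, and 9 of them had 0 UMIs at 3m. Mki67, a marker of dividing cells, was at 96.6, 44.5 and 60.5 CPM at P3 and had 0 UMIs at 3m, at least 28.9-fold higher, and Cdk1, the mitotic kinase, was at 135, 110.5 and 162 CPM against 0 UMIs, at least 57.5-fold higher. Top2a, a topoisomerase, was at 141, 67.1 and 127 CPM with 1 UMI at 3m, a ratio of 146 (95% counting interval 26.1 to 5760.1). The libraries of the ages lay apart for these and for Pcna, a DNA replication clamp, which missed the fold threshold at 94.8, 69.7 and 78.7 CPM against 44.5, 54.5 and 41.4 CPM (0.92 ± 0.22, padj = 0.00288) and passed it without 3m replicate 2 (1.05). The median log2(fold change) of the list was 7.27 as fitted and 3.54 with genes at 0 set to their bound, beside 0.03 for all genes. Non-endothelial P3 cells expressed these genes too, with Mki67 at 89.3 CPM. Over END_7 and END_17 thinned to 2000 UMIs, 7.45% ± 2.26 of cells at P3 had cycling transcripts (SD, n = 3 libraries) and 0 of 56, 42 and 52 cells at 3m, which allows shares up to 5.36, 7.14 and 5.77%, and the exact two-sided permutation p was 0.1, the smallest possible. A share as low as the 5.26% of P3 replicate 2 could thus not be told from 0 in any adult library.

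Tip cell genes were called higher at P3 for 7 of 10 tested and lower for 0, beside 10.7% and 11.6% of all genes, and their median log2(fold change) was 2.10. Lamb1, a laminin chain (chromosome 12: 31265234 to 31329644), was at 144, 134 and 115 CPM at P3 against 14.2, 7.78 and 7.30 CPM (3.74 ± 0.29, padj = 8.27e-09). Cxcr4, a chemokine receptor, was at 53.1, 48.8 and 40.2 CPM against 8.89, 0 and 0 CPM (3.64 ± 0.50). Angpt2, the angiopoietin of remodelling vessels, was at 44.5, 42.8 and 51.0 CPM against 7.12, 11.7 and 14.6 CPM (2.22 ± 0.34). With Apln and these 3 genes, Nid2, Adm and Plaur were the called members, and P3 and 3m libraries lay apart for each, though Plaur lost its call without 3m replicate 1 (0.98). Dll4, the Notch ligand of tip cells, had 0.87 ± 0.28, and Pdgfb, which recruits pericytes, -0.61 ± 0.20, both short of the fold threshold. Dll4 was called without 3m replicate 1 (1.24) or 3m replicate 3 (1.06). Esm1 and Kcne3 were too low to be tested and had 0 UMIs at 3m.

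Basement membrane genes were higher at P3 for 11 of 20 tested and lower for 3, beside 10.7% and 11.6% of all genes. Col4a1, a collagen IV chain (chromosome 8: 11198423 to 11312826), was at 1151, 952 and 1051 CPM against 324, 292 and 324 CPM (1.84 ± 0.20, padj = 5.55e-07). Nid1, nidogen, had 2.29 ± 0.22, Col4a2 2.28 ± 0.21 and Lama4, the laminin chain of vessels, 2.10 ± 0.21. Collagen handling proteins were higher as well, Serpinh1 with 2.01 ± 0.20 and Plod1 with 1.62 ± 0.24. The laminin chains did not go one way: Lamb2 had -1.42 ± 0.20 and Lama5 -1.36 ± 0.28, both lower at P3. Fn1 was at 702, 667 and 612 CPM against 432, 261 and 421 CPM, apart in all libraries but under the fold threshold (0.91 ± 0.21, padj = 0.00203), and it was called without 3m replicate 1 or 3m replicate 3 (1.07 each). Among 8 integrins tested, 2 were higher and 1 lower at P3, beside 10.7% and 11.6% of all genes. Itga5, a fibronectin receptor chain (2.56 ± 0.35), and Itga4 (2.20 ± 0.22) were higher. Itga6, a laminin receptor chain (-2.10 ± 0.22), was lower, with 2 lower without P3 replicate 2 or 3m replicate 3.

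Barrier transporters went both ways, with 9 of 18 higher and 6 lower at P3, beside 10.7% and 11.6% of all genes. Those higher carry amino acids, monocarboxylates, lipids and iron. Slc38a5 was at 945, 872 and 797 CPM against 261, 121 and 231 CPM (2.15 ± 0.23, padj = 8.21e-07), and Mfsd2a, a carrier of lysophospholipids with docosahexaenoic acid, was at 784, 374 and 354 CPM against 173, 101 and 77.9 CPM (2.15 ± 0.29). Slc7a5, the large neutral amino acid carrier, had 1.86 ± 0.22, and Slc16a1, the lactate carrier, 1.74 ± 0.21. Slc3a2, Slc7a1, Tfrc, Slc38a3 and Slc40a1 completed the 9. Efflux and organic anion carriers were among those lower. Slco1a4 was at 114, 103 and 146 CPM against 1482, 1105 and 1309 CPM (-3.32 ± 0.22, padj = 8.84e-10), Abcb1a, P-glycoprotein, at 118, 96.4 and 115 CPM against 902, 662 and 762 CPM (-2.73 ± 0.19), and Abcg2 had -1.65 ± 0.19. Slc19a3, a thiamine carrier, and Abcc4 were also lower, as was the glucose carrier Slc2a1 at 692, 387 and 303 CPM against 1661, 693 and 859 CPM (-1.14 ± 0.29), whose call was lost without P3 replicate 3 (-0.95) and without 3m replicate 1 (-0.64). Slc40a1 lost its call without P3 replicate 3 (0.95). Slco1c1, a thyroid hormone carrier, was at 772 to 1138 CPM at P3 and 677 to 916 CPM at 3m and did not pass (0.25 ± 0.21, padj = 0.374).

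Of 10 junction genes 0 were higher and 1 lower, beside 10.7% and 11.6% of all genes, or 2 lower without P3 replicate 1, P3 replicate 2 or 3m replicate 3. Cldn5 was at 3488, 2806 and 2388 CPM at P3 and at 6539, 2432 and 2613 CPM at 3m (-0.32 ± 0.32, padj = 0.474). The ages overlapped, 1 adult library was high, and without 3m replicate 1 the sign turned (0.33). Ocln, occludin, was the call, at 65.1, 69.3 and 61.6 CPM against 190.3, 179 and 185 CPM (-1.41 ± 0.17, padj = 3.67e-06). Caveolar genes were lower at P3 for 4 of 5 tested, beside 11.6% of all genes. The 4 were Cav1 (-1.43 ± 0.17), Cav2 (-1.47 ± 0.18), Cavin2 (-1.44 ± 0.18) and Cavin3 (-1.03 ± 0.17). Cavin3 lost its call without any 1 of the 3m replicates (-0.95 without 3m replicate 3). Plvap, the diaphragm protein of fenestrae, was at 1.85, 2.38 and 2.57 CPM at P3 with 0 UMIs at 3m and was too low to be tested.

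Genes of the VEGF and angiopoietin families did not go one way, with 1 of 11 higher (Angpt2) and 3 lower, beside 10.7% and 11.6% of all genes. Kdr was at 683, 443 and 435 CPM at P3 against 349, 222 and 255 CPM, apart in all libraries and just under the fold threshold (0.99 ± 0.21, padj = 0.00132), and it was called without P3 replicate 2 (1.05), P3 replicate 3 (1.07) or 3m replicate 1 (1.24). Flt1, VEGF receptor 1, was lower at P3, at 789, 619 and 539 CPM against 2509.9, 1985 and 2202 CPM (-1.69 ± 0.22, padj = 6.13e-06). Tek, the angiopoietin receptor, was lower too (-1.45 ± 0.19), while its relative Tie1 was at 155 to 169 CPM at P3 and 152 to 173 CPM at 3m. Of 11 Notch genes tested Jag2, a ligand, was lower (-1.35 ± 0.21) and Hes1, a target, higher (1.04 ± 0.20), 1 of 11 each way beside 10.7% and 11.6% of all genes. Hes1 is not particular to endothelium, with 329 CPM in non-endothelial P3 cells, and its call was lost without P3 replicate 1 (0.99), P3 replicate 3 (0.93) or 3m replicate 3 (0.98). Without P3 replicate 1 or 2 a further Notch gene was lower, and without 3m replicate 1 a further one was higher.

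Of 19 Wnt pathway genes of brain endothelium 1 was higher and 2 were lower, no more often than the 10.7% and 11.6% of all genes. The receptor genes Fzd4 (-0.40 ± 0.22, padj = 0.183) and Tspan12 (-0.01 ± 0.22) did not pass. Without 3m replicate 3 the number lower was 4. Apcdd1, a Wnt target and inhibitor, was higher at P3, at 752, 521 and 502 CPM against 254, 136 and 153 CPM (1.76 ± 0.23). Lef1, a transcription factor of the pathway, was lower, at 96.2, 96.2 and 96.5 CPM against 274, 397 and 328 CPM (-1.68 ± 0.18, padj = 7.55e-07), and so was Reck (-3.51 ± 0.27), a co-receptor for Wnt7. Of 22 endothelial transcription factors, 1 was higher and 4 lower, beside 10.7% and 11.6% of all genes. Of the 22, 5 had a positive log2(fold change), and the median was -0.47. Ets1 had 1.13 ± 0.18, and Gata2 (-2.27 ± 0.23), Epas1 (-1.69 ± 0.21), Foxp1 (-1.48 ± 0.19) and Klf4 (-1.06 ± 0.21) were lower, Klf4 without a call once 3m replicate 2 was left out (-0.72). Erg, at 79.3 to 98.2 CPM at P3 and 102 to 132 CPM at 3m, and Sox18 (-0.84 ± 0.20) were not called.

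Arterial genes were lower at P3 for 7 of 13 tested and higher for 1, beside 11.6% and 10.7% of all genes. After Gkn3 and Alpl the largest was Bmx, a kinase of arterial endothelium (chromosome X: 164192842 to 164258193), at 0.995, 2.14 and 2.03 CPM at P3 against 74.7, 54.5 and 77.9 CPM (-5.27 ± 0.34, padj = 6.16e-10). Sema3g (-3.13 ± 0.28), Mgp (-2.91 ± 0.25), Vegfc (-2.62 ± 0.30) and Cxcl12 (-2.03 ± 0.27) were the others. Mgp, a matrix protein, is shared with mural cells, and P3 pericytes held a mean of 1025 CPM against 70.8, 60.9 and 37.0 CPM in END_7. Gja4, a connexin of arteries, went the other way, at 185, 232 and 217 CPM against 99.6, 73.9 and 60.8 CPM (1.51 ± 0.21), and without 3m replicate 1 it was joined by 1 more. Venous genes gave 3 higher (Slc38a5, Aplnr and Icam1) and 1 lower of 8 tested, beside 10.7% and 11.6% of all genes. The lower gene was Vcam1, an adhesion molecule, at 5.12, 6.43 and 6.23 CPM at P3 against 183, 105 and 141 CPM (-4.54 ± 0.24, padj = 5.37e-11). Icam1 lost its call without P3 replicate 1 (0.98) or 3m replicate 3 (1.00), and 2 venous genes were lower without P3 replicate 1, P3 replicate 3 or 3m replicate 2. Vcam1 was not particular to vessels, with 330.4 CPM in non-endothelial P3 cells.

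MHC class I and interferon genes were lower at P3 in 13 of 14 tested, beside 11.6% of all genes. Their median log2(fold change) was -2.16. H2-K1 (chromosome 17: 33996017 to 34000347), which presents peptides, was at 39.2, 22.6 and 22.3 CPM at P3 against 802, 304 and 367 CPM (-4.06 ± 0.30, padj = 5.4e-09). Ifit3, an interferon-induced protein, had -5.16 ± 0.28 and Psmb9, a subunit of the immunoproteasome, -4.01 ± 0.24. B2m, the light chain of MHC class I, was at 257, 189.7 and 206 CPM against 1057, 662 and 625 CPM (-1.76 ± 0.21). Reads of H2-K1 and H2-D1 can be shared with other MHC genes, so their split is uncertain. Bst2 was the member without a call (-0.64 ± 0.17).

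Of the 18 identity genes, 12 had no call, 1 was higher and 5 lower at P3, beside 10.7% and 11.6% of all genes. The Ly6 surface proteins had the largest differences: Ly6a (chromosome 15: 74994877 to 74998031) was at 133, 81.4 and 109 CPM against 3239, 2681 and 2528 CPM (-4.62 ± 0.25, padj = 6.65e-11), and Ly6c1, a near relative that can share reads with its paralogues, had -3.61 ± 0.24. Emcn, a sialomucin, was lower as well (-1.67 ± 0.19), with Flt1 and Tek. Ecscr, a regulator of endothelial migration, was at 495, 549.7 and 565 CPM against 141, 156 and 173 CPM (1.89 ± 0.20). Without P3 replicate 2, P3 replicate 3 or 3m replicate 1 a further identity gene, Kdr, was higher. Pecam1, an adhesion molecule, was at 283, 213 and 201 CPM against 498, 327 and 399 CPM and was not called (-0.73 ± 0.19).

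Imprinted growth genes were higher at P3 for 5 of 8 tested and lower for 1, beside 10.7% and 11.6% of all genes. Igf2, the fetal growth factor, was at 272, 183 and 161 CPM against 53.4, 27.2 and 41.4 CPM (2.34 ± 0.25, padj = 6.17e-07), and Mest, a hydrolase, was at 76.3, 121 and 136 CPM against 0 UMIs, at least 45.1-fold higher. P3 pericytes held more Igf2 than END_7, with a mean of 824 CPM. Igf2r, the receptor that clears Igf2 (2.58 ± 0.40), Grb10 (1.60 ± 0.26) and Ndn, with 0 UMIs at 3m, were also called. Cdkn1c, a cell cycle inhibitor, was lower at P3, at 77.4, 95.2 and 75.3 CPM against 269, 284 and 346 CPM (-1.76 ± 0.19). Of 83 ribosomal protein genes 14 were called higher, beside 10.7% of all genes. Of the 83, 82 had a positive log2(fold change), with a median of 0.70. With P3 cells no deeper than the deepest 3m cell, 4 of the 83 were called, and 27 without 3m replicate 3. Immediate early genes gave 1 call of 9, Ier2 (1.36 ± 0.27), close to the 10.7% of all genes called higher.

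**Figure D5:**
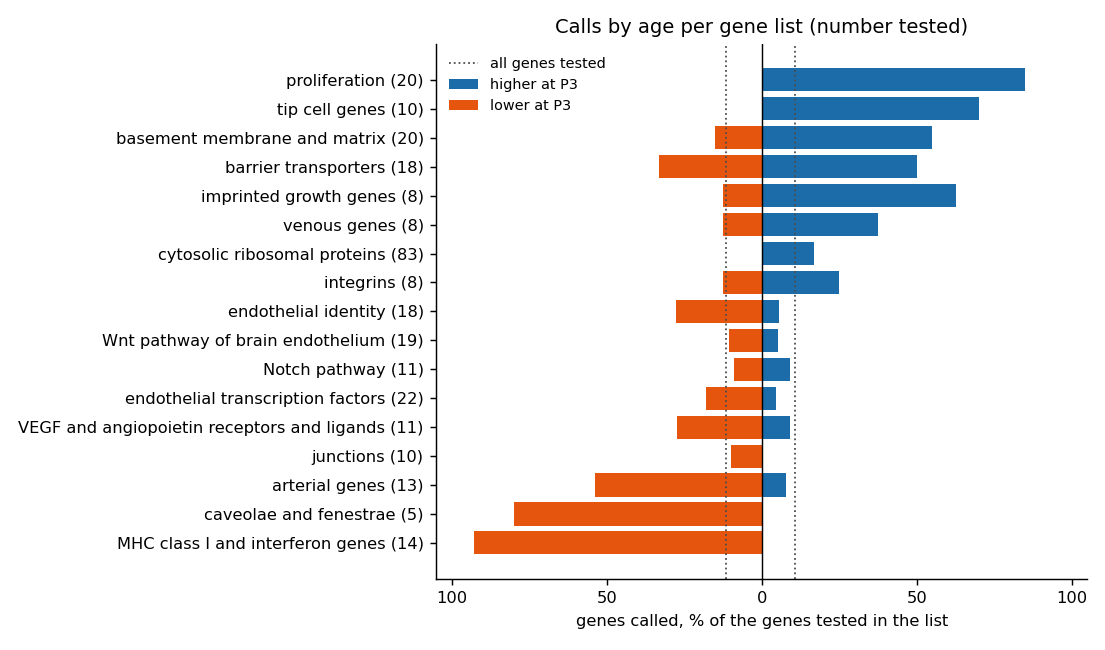
Share of the genes tested in each list drawn (number in brackets, marker lists of other cell types not drawn) that were called higher (blue, right) or lower (orange, left) at P3 in the END_7 and END_17 sums. Dotted lines mark the 10.7% and 11.6% of all genes tested, and proliferation (17 of 20) and MHC class I and interferon genes (13 of 14) lie farthest out on either side among these lists.

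Markers of other cells differed between the endothelial sums of the ages, and their part in the differences above was not tested. Over all genes, 10.7% were called higher and 11.6% lower at P3. Mural markers summed to 2618 to 4120.2 CPM at P3 and 7067 to 8064 CPM at 3m, with 5 of 11 called lower at P3. Vtn was at 943, 1169 and 734 CPM against 3728, 3833 and 4438 CPM (-1.98 ± 0.25), the smooth muscle genes Acta2, Tagln and Myh11 and the pericyte receptor Notch3 were the other calls, and Rgs5 did not pass (-0.46 ± 0.26, padj = 0.180). Without 3m replicate 1, Acta2 (-0.97) and Tagln (-1.12) lost their calls and 3 of the list were lower. Oligodendrocyte markers summed to 76.3 to 86.2 CPM at P3 and 784 to 1490 CPM at 3m, with 3 of 3 tested lower, or 5 lower without 3m replicate 1 or 3m replicate 3. Mal made up nearly all of the P3 level, while the myelin gene Mbp was at 0, 0.238 and 0.406 CPM at P3 and 109, 171 and 53.5 CPM at 3m. Of 8 astroglial markers tested 1 was higher, Fabp7 (6.03 ± 0.53), and 4 lower, with sums of 404 to 604 CPM at P3 and 283 to 1179 CPM at 3m. Without 3m replicate 2, 3 were higher and 2 lower. The astroglial marker Ttyh1 kept its call only when the library left out was 3m replicate 1, and without 3m replicate 2 it was at -0.23.

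Stmn2 was the 1 neuronal marker tested and was lower at P3 (-4.45 ± 0.38), while Snap25 and Syt1 had at most 2 UMIs in any sum. Of the 8 microglial markers, 7 (Cx3cr1, P2ry12, Tmem119, C1qa, C1qb, C1qc and Csf1r) had at most 4 UMIs in any sum and were not tested. The fibroblast list gave Col3a1 (3.12 ± 0.46) and Col1a2 (1.04 ± 0.33) as higher at P3, Col1a2 without a call once P3 replicate 1 (0.77), 3m replicate 2 (1.06) or 3m replicate 3 (0.83) was left out, while Dcn and Col1a1, which define fibroblasts, had at most 3 UMIs in any P3 sum. Erythroid markers summed to 9592 to 26883 CPM at P3 and 19189 to 42669 CPM at 3m, and the ages overlapped. Of the 5 genes 0 were called by edgeR, 0 had an unadjusted p under 0.05 and 0 were called by DESeq2.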

How the data were processed

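Single-cell RNA-seq libraries (10x Genomics 3′ chemistry, polyadenylated RNA) of ACSA2-selected striatal cells were analysed, 3 at P3 and 3 at 3m. The study's methods pooled several animals in each preparation and left the subventricular zone out of the dissection. The deposited counts are raw UMI counts per gene and barcode, which the authors made with Cell Ranger on mm10 and merged in Seurat, for which the submitters' processing notes and the study's methods give different versions. Barcodes with more than 500 genes and a mitochondrial share below 10% were kept, normalised with SCTransform, clustered and named by the authors. UMIs count molecules and not reads, so duplicates from amplification do not add to a value, and genes with near-identical copies are uncertain because reads that fit both cannot be placed. The table held 32285 genes.

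Here the deposited clusterName column chose the cells, and groups and replicate numbers came from the labels. UMIs were summed over the END_7 and END_17 cells of each library and fitted with edgeR 4.0.16 in R 4.3.3 (filterByExpr, TMM, glmQLFit and glmQLFTest, age alone as the design), with calls at padj of at most 0.05 and log2(fold change) of at least 1 in either direction. The test was checked on simulated data of 10058 genes, with 93 changes of each size planted in both directions. There 72% of changes of 1.5 on the log2 scale and 92.5% of changes of 2 were recovered with 4 false calls. Far more genes were called in the real data, so the 4 false calls do not give the error of those calls. Shares of cells were taken after each cell was thinned to 2000 UMIs, leaving out cells with fewer, which kept 173, 171 and 260 END_7 cells and 56, 42 and 52 END_17 cells at 3m. Such shares have 95% Wilson intervals, and beside a share of 0 the text gives the share that 3 cells would make. Library values were compared by an exact permutation test (scipy 1.17.1). Genes described at P3 had at least 10 UMIs per library over END_7 or the other cells. The members of the cluster and the gene lists were chosen with earlier results of these data known.

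The genes named were Kdr, Cldn5, Slc38a5 and Fn1. To these were added the 12 with the highest lowest-library ratio to any other non-endothelial P3 class (mean of at least 100 CPM), and the 12 most variable (mean of at least 0.1 UMI). By age, the 10 largest called differences each way were named among those with at least 50 CPM and 2 times the non-endothelial level, libraries apart and predicted genes left out. From each list up to 3 called genes each way were named, and further members to account for the list. Alternatives were RLE scaling or none, DESeq2 1.42.0, other filters, a replicate block, other endothelial clusters, and subsets of cells, depth or libraries. Promoters came from the RefSeq table of GRCm38.p6 and gene positions from GENCODE M21 on GRCm38, the assembly of mm10. Nothing states that the replicates differ in more than preparation, so p-values measure the spread between these preparations. Some list members are not reported here by name.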

Additional observations from a re-analysis of the deposited data

How the results depend on the processing

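With every library thinned to the smallest total (256977 UMIs), 959 genes were called, 383 higher and 576 lower at P3, and fewer genes were tested (4304). Leaving out 1 library gave 682 to 1188 higher, 899 to 1129 lower and 1581 to 2317 called in all. Under RLE scaling, no scaling (924 higher, 1345 lower), DESeq2 (1032 and 1161), both filters, other cluster sets, equal cell numbers (791 and 932), no cells over the 90th percentile of UMIs and P3 cells capped at the depth of the deepest 3m cell, counts stayed within 1.5 times. With no scaling the median log2(fold change) was -0.08, and with every gene of at least 1 UMI 0.31.

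Over 2723 pairs of a gene and an alternative (153 named or listed genes), 2627 kept direction and call, 74 lost the call, 20 gained it and 2 turned direction. The latter were Ttyh1 (0.59 with all 4 clusters) and Cldn5 (-0.52 to 0.33 on leaving out 1 library), and the cause was not tested. A gene no longer tested under an alternative formed no pair, most often with every library thinned to the smallest total. The replicate block gave 2324 calls, 1118 higher and 1206 lower. Deviations of same-numbered libraries correlated at 0.243, 0.0741 and 0.0579, and those of differently numbered libraries at -0.174 to 0.0929. These values do not settle whether the numbers pair the samples, and the main fit left them unpaired.

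The cycling difference of 7.45% became 35.2% without thinning, 3.27% at 1000 UMIs, 27.5% with 1 of 3 genes and 8.14% with all 4 clusters, and 6.29 to 8.54% on leaving out 1 library. The depth difference ran from 18185 to 23238 UMIs on leaving out 1 library and was 10227 UMIs with all 4 clusters. The adult sums limit the low genes: 3 UMIs over the 3m libraries are 2.44 CPM, over P3 0.161 CPM.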

Other observations

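The other P3 clusters with an endothelial name also carried END_7 markers, given here for P3 replicate 3, where most of their cells lie. There END_13 held 1333 CPM of Cldn5 (802 UMIs) and END_12 737 CPM (365 UMIs), against 2388 CPM in END_7. Kdr was at 251 CPM in END_13, 149 CPM in END_12 and 435 CPM in END_7. Slc38a5 was at 766, 209.9 and 797 CPM in the same order, and Pglyrp1 at 2109, 1199 and 2044 CPM. Prnd, the gene that led END_7, was at 115 CPM in END_13, 58.5 CPM in END_12 and 128 CPM in END_7, and Vwf at 59.8, 109 and 194 CPM. In replicate 3 END_13 thus came near END_7 for Slc38a5, Prnd and Pglyrp1 and lay under it for Cldn5, Kdr and Vwf. The other replicates differed. Slc38a5 in END_13 was at 291 and 533 CPM in replicates 1 and 2, against 946 and 872 CPM in END_7. Kdr came near END_7 in replicate 2, at 419 against 443 CPM. In P3 replicate 3 a globin UMI was found in 7.45% of END_13 cells and in 100% of END_12 cells, where erythroid genes were 5.79% of the summed UMIs. In END_7 the same genes were 0.960, 2.69 and 2.02% of the summed UMIs in replicates 1 to 3. These values carry no test, since the clusters were made from such genes.

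Barcodes without a cluster name also held endothelial transcripts. At least 2 endothelial identity genes, together at 1000 CPM or more, were found in 7 of 92, 8 of 137 and 93 of 543 unannotated barcodes of P3 replicates 1 to 3, and in 5 of 852, 3 of 370 and 5 of 323 at 3m. The medians of these groups ran from 599 to 1219 UMIs, under the shallowest END_7 cell (1688 UMIs). In a barcode under 2000 UMIs, 2 UMIs alone pass 1000 CPM, so the level hardly narrowed the choice. Whether these barcodes were endothelial cells was not tested. P3 replicate 3 thus held the most of them, as it did of END_12 and END_13 cells.

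The END_17 cell at P3 came from replicate 1 and held 7900 UMIs. It had 15 UMIs of Cldn5, 8 of Kdr, 10 of Fn1 and 0 of Slc38a5.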
